A study of Homo sapiens with 2 samples.

Results

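YAP1 and its paralog WWTR1 (TAZ) are transcriptional coactivators that bind DNA through TEAD factors, and 10 genes of this pathway were examined in MKN1, a long-established cell line from a human stomach cancer. The genes were the factors YAP1, WWTR1 and TEAD1 and the target genes CCN1, CCN2, ANKRD1, AMOTL2, LATS2, PTPN14 and FJX1. They were selected on earlier results of the same arrays, in which several of them had higher signal in cells with mutant RHOA, so their differences below are a description and carry no test. The array annotation named 9 of the 10, each with 1 probe set, among 17687 named genes. AMOTL2 had no probe set under that name in the annotation used here and has no value.

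One MKN1 line overexpressed RHOA Y42C and the other overexpressed wild-type RHOA, both from a pBABE plasmid with puromycin selection, and each was hybridised to 1 array. Y42C replaces a tyrosine with a cysteine in the part of this small GTPase that contacts its effectors. Whether a line was 1 clone or a pool is not given in the sources used here, no line without added RHOA was analysed here, and both groups also keep their own RHOA gene. With 1 array a group there is no replicate, no error between samples and no p-value, and every value compares these 2 lines.

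In background terms, the Hippo kinases MST1 and MST2 (STK4 and STK3) activate LATS1 and LATS2, which phosphorylate YAP1 and WWTR1 and keep them out of the nucleus. Actin tension built by RHOA favours their entry into the nucleus, where they and TEAD factors switch on genes such as CCN1, CCN2 and ANKRD1. Several targets, among them LATS2, AMOTL2 and PTPN14, encode proteins that restrain YAP1 in turn. The activity of YAP1 is set largely by phosphorylation and location of the protein, which an RNA array does not measure.

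All 9 measured genes were higher in the Y42C array, and 5 were at least 2-fold higher: PTPN14, ANKRD1, LATS2, FJX1 and CCN2. None of the 9 was lower. Over the 11802 genes that passed the expression minimum, 7.46% reached 2-fold higher, 9.80% reached 2-fold lower, and 45.2% were higher by any amount. These shares use the deposited values, also where 1 array was below the minimum. With such values set to the minimum, 6.68% reached 2-fold higher and 9.10% reached 2-fold lower. At 1.5-fold, 7 of the 9 genes were higher, and 17.8% of all genes. The median difference was 1.55 for the 9 genes and -0.07 for all genes above the minimum (log2, Y42C minus wild-type). The 3 factors differed by 0.22 to 0.63, and the 6 measured targets by 0.95 to 2.02, so the 2 ranges did not overlap. Because the genes were selected with these differences known, nothing is read from the counts or from the gap between the 2 ranges.

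The minimum was the 95th percentile of 349 olfactory receptor genes on each array, 5.14 for Y42C and 5.17 for wild-type, and a gene was kept when 1 array reached it. All 9 genes were above it on both arrays. The values are those deposited and were taken as log2, so a difference of 1 is 2-fold. The SD of the difference was 0.768 over all genes above the minimum and 0.440 over the olfactory receptor genes. In 4 equal classes of mean signal that SD lay between 0.707 and 0.824, with no steady trend from dim to bright.

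**Figure D1:**
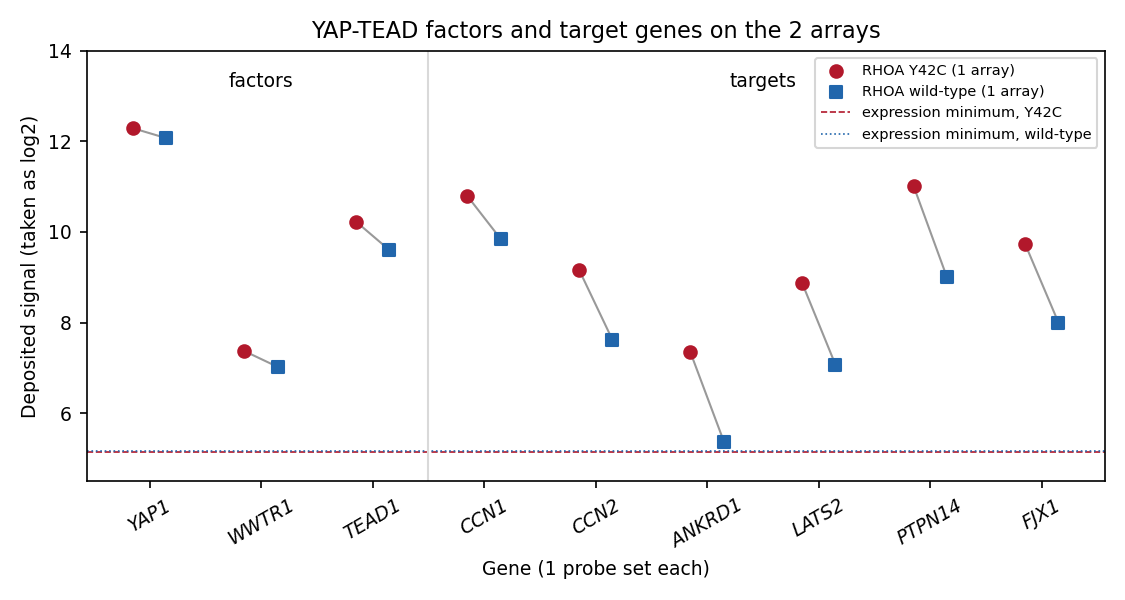
Deposited signal, taken as log2, of the 9 measured genes on the RHOA Y42C array (red circles) and the RHOA wild-type array (blue squares), 1 array each, with the expression minimums as horizontal lines. Each gene is higher on the Y42C array, and the wild-type value of ANKRD1, 5.37, is the closest to the minimum.

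The promoters of 4 genes that were at least 2-fold higher are shown because they hold the core TEAD motif GGAATG, the core of the sequence that TEAD factors are known to bind. The windows are from RefSeq on GRCh38.p14 and run from 250 bases before to 50 bases after the annotated start, and all 4 genes lie on the minus strand. The positions are chr6:131951323-131951622 for CCN2, chr10:90921038-90921337 for ANKRD1, chr13:21061537-21061836 for LATS2 and chr1:214551553-214551852 for PTPN14. Sequences are written 5′ to 3′ along the gene, and capitals mark each GGAATG or its reverse complement CATTCC.
CCN2: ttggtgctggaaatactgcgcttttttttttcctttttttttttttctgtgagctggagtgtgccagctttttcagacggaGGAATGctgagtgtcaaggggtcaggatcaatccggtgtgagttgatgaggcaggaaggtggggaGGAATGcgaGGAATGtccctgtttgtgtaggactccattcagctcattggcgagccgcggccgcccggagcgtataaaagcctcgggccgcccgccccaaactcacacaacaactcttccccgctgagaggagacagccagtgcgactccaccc
ANKRD1: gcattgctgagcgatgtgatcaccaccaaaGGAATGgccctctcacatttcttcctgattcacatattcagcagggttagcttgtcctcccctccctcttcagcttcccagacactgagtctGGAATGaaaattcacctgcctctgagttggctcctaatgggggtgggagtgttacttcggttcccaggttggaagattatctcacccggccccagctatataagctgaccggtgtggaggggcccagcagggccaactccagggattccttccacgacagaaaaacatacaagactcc
LATS2: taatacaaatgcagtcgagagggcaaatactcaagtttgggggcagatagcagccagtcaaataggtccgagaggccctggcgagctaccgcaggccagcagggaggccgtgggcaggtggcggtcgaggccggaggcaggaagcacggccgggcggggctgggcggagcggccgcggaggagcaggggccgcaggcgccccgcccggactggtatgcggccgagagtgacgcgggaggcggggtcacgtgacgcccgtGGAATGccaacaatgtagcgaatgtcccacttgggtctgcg
PTPN14: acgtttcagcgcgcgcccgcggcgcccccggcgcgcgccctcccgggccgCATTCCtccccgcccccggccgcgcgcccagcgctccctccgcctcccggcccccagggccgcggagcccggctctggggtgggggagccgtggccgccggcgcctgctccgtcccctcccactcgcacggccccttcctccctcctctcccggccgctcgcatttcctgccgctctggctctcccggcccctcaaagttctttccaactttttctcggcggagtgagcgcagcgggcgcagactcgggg

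CCN2 had 3 matches, whose first bases lay at -169, -104 and -95 from the start, with the last 2 separated by 3 bases. ANKRD1 had 2, at -220 and -128, and between them a match to the AP-1 motif TGANTCA at -195. N is any base, and this match reads TGATTCA, with T where the usual AP-1 consensus has C or G. All AP-1 matches counted here used this looser motif. AP-1 dimers of FOS and JUN proteins often bind beside TEAD. In PTPN14 the 1 match lay at -200 on the opposite strand, and in LATS2 it lay just downstream of the start, at 10. YAP1 itself had 1 match at -162. The FJX1 window and both WWTR1 windows held no match, and 1 of the 2 AMOTL2 windows held 1 match.

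Windows were found for 8 of the 10 genes, not for TEAD1 or CCN1, and 6 of the 8 held the TEAD motif at least once. It occurred in 14% of all 35116 windows on either strand, and in at least 1 window of 16.7% of 27305 genes. At least 2 matches in a window occurred for 1.70% of genes and at least 3 for 0.165%. The AP-1 motif, with any base at N, occurred in 7.71% of windows, and the 2 motifs were counted independently of each other. A match shows only that the letters are present, and occupancy was not measured.

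**Figure D2:**
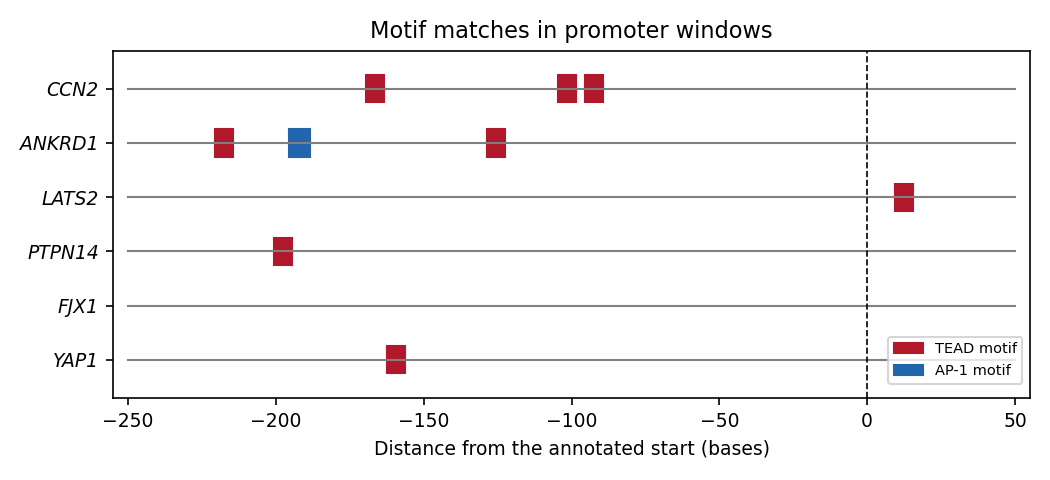
Positions of TEAD motif matches (red) and AP-1 motif matches (TGANTCA with any base at N, blue) in the promoter windows of 6 genes. Both strands were searched, and positions are in bases from the annotated start (dashed line). CCN2 has 3 TEAD matches, ANKRD1 has 2 with an AP-1 match between them, and the FJX1 window has none.

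Among the factors, YAP1 had a log2 signal of 12.29 in the Y42C array and 12.07 in the wild-type array. WWTR1 had 7.37 in the Y42C array and 7.02 in the wild-type array. TEAD1, a DNA-binding partner of both, had 10.23 in the Y42C array and 9.60 in the wild-type array. These are differences of 1.16-fold, 1.27-fold and 1.55-fold, each smaller than the SD over all genes, and 32.9% of genes above the minimum were at least as far in the positive direction as YAP1. Of the other TEAD genes, TEAD2 differed by -0.42, TEAD4 by -0.39 and TEAD3 by 0.02.

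The VGLL genes encode cofactors that compete with YAP1 for TEAD. VGLL4, known to oppose YAP1 at TEAD, was nearly equal, at 7.51 in the Y42C array and 7.53 in the wild-type array. VGLL3 differed by 0.61, and VGLL1 and VGLL2 were below the minimum in both arrays. Of the 6 TEAD and VGLL genes above the minimum, TEAD1 included, 0 were 2-fold apart, against 17.3% of all genes. Their median difference was 0. With so few genes, nothing is read from this count.

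CCN1 and CCN2 encode secreted matricellular proteins that bind integrins, and they are widely used readouts of YAP1 activity. CCN2 had a log2 signal of 9.17 in the Y42C array and 7.62 in the wild-type array, a 2.93-fold difference that 2.36% of genes reached or passed. CCN1 had 10.79 in the Y42C array and 9.84 in the wild-type array, which is 1.93-fold and just under 2-fold. When the 2 arrays were centred on their medians CCN1 passed the threshold, with a difference of 1.01, and the count of genes at least 2-fold higher became 6 of 9. Both genes are also targets of the actin-regulated factor SRF.

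Of the other members of the CCN family, CCN3 was 1.59-fold higher in the Y42C array, at 9.79 and 9.12 in the wild-type array. CCN4 was below the minimum in both arrays. CCN5 and CCN6 were near the minimum, with 5.15 and 5.23 in the Y42C array and 4.75 and 5.10 in the wild-type array, and give no usable fold. CCN2 was the 1 family member past 2-fold.

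ANKRD1, an ankyrin repeat protein induced by stretch in muscle, had a log2 signal of 7.34 in the Y42C array and 5.37 in the wild-type array. The difference of 1.97 corresponds to 3.92-fold, but the wild-type value stood only 0.20 above its minimum. With a constant of 16 added to the linear signal, which damps low values, the difference was 1.63. The related ANKRD2 went the other way, with 4.81 in the Y42C array, below the minimum, and 5.58 in the wild-type array, so it was at least 1.36-fold lower. ANKRD23 was below the minimum in both.

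Some of the target genes encode restraints on the pathway, and PTPN14 and LATS2 are the 2 of them with a value. PTPN14, a phosphatase that binds YAP1 and holds it in the cytoplasm, had a log2 signal of 11.02 in the Y42C array and 9.0 in the wild-type array. It was 4.06-fold higher, ranked 112 of 11802 genes, and was the 1 gene of the 9 past 4-fold, where 1.0% of genes lay. LATS2, the kinase that phosphorylates YAP1 and WWTR1, had 8.88 in the Y42C array and 7.07 in the wild-type array, or 3.51-fold higher. Its paralog LATS1, a kinase of the same step, was close in the arrays, with 11.78 in the Y42C array and 11.59 in the wild-type array. AMOTL1, the relative of the unmeasured AMOTL2, was 2.53-fold higher, with 11.40 in the Y42C array and 10.06 in the wild-type array.

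FJX1 is the human counterpart of four-jointed, which in Drosophila encodes a Golgi kinase acting on the cadherins Fat and Dachsous. It had a log2 signal of 9.74 in the Y42C array and 8.0 in the wild-type array, 3.34-fold higher. FAT1, a giant cadherin of this branch, was 2.69-fold higher, with 15.03 in the Y42C array and 13.60 in the wild-type array. DCHS2 differed by 0.85, and FAT2, FAT3, FAT4 and DCHS1 were below the minimum in both arrays. LIX1L was 2.25-fold lower, with 8.89 in the Y42C array and 10.06 in the wild-type array.

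**Figure D3:**
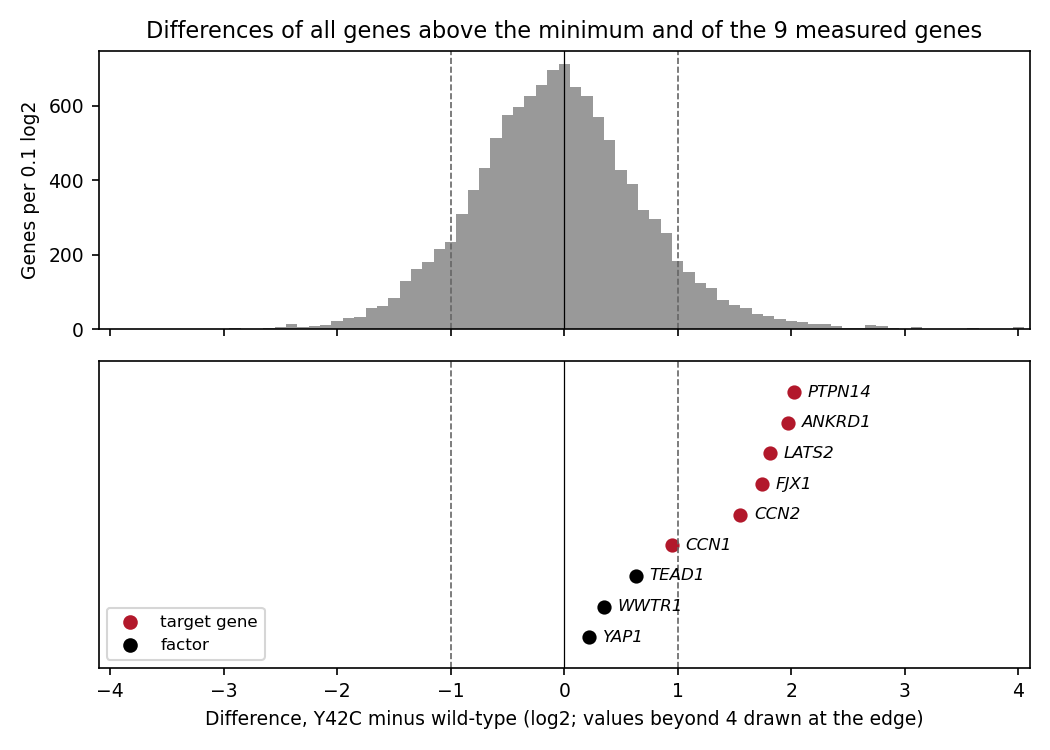
Upper panel, number of genes per 0.1 log2 of difference (Y42C minus wild-type) for the 11802 genes above the minimum. Lower panel, the 9 measured genes on the same axis, targets in red and factors in black, with dashed lines at 2-fold; 5 targets lie beyond the line, CCN1 lies just inside it at 0.95 and the factors lie between 0.22 and 0.63.

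The genes were also set beside their neighbours on the chromosome. For each gene the 5 nearest genes on either side that passed the expression minimum were taken from the RefSeq gene order. Genes below the minimum on both arrays were skipped. The median difference of these neighbours lay between -0.21 and 0.52 over the 9 genes. PTPN14, ANKRD1, LATS2, FJX1 and CCN2 each had a larger difference than all 10 of their neighbours. These 5 genes were selected with their high differences known, so this order was largely set in advance and nothing is read from it. Of the 90 neighbours, 7 reached 2-fold higher (7.78%) and 9 reached 2-fold lower, close to the shares over all genes. ANKRD1 had the highest neighbour median, 0.52, with none of its neighbours past 2-fold higher.

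YAP1 had 4 neighbours with a difference at or above its own. They were the matrix metalloproteinase genes MMP1, MMP10 and MMP3 and the apoptosis inhibitor gene BIRC2, all picked after their values were seen. MMP1 had 12.16 in the Y42C array and 8.72 in the wild-type array. MMP10 had 6.80 and MMP3 7.41 in the Y42C array, with wild-type values of 3.78 and 4.97 that lie below the minimum. Both therefore entered the neighbour set through the Y42C array alone. BIRC2 differed by 0.25, close to YAP1.

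**Figure D4:**
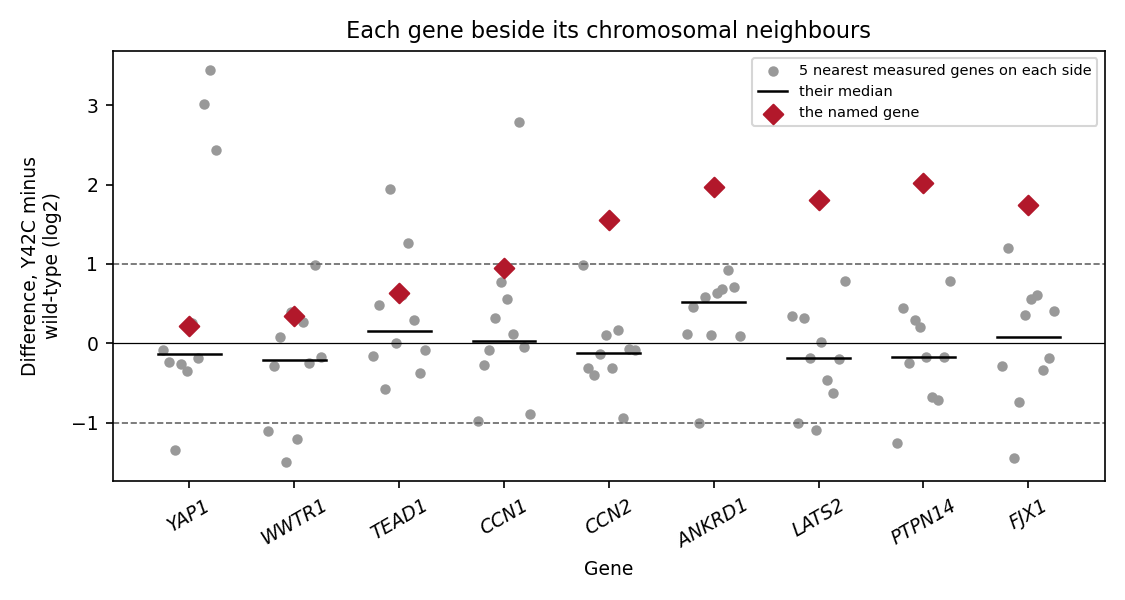
Difference (log2, Y42C minus wild-type) of each of the 9 genes (red diamonds) and of their neighbours (grey points, with their median as a black line). Neighbours are the 5 nearest genes on each side that passed the expression minimum. Dashed lines mark 2-fold. The 5 targets past 2-fold, selected with their differences known, lie above all of their neighbours. The neighbour medians of the 9 genes stay between -0.21 and 0.52.

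Beyond the selected genes, the targets of YAP1 and TAZ differed unevenly. A conserved target signature of 22 genes holds 7 of the 10 examined genes, and of its other members 11 were above the minimum. Of these 11, 2 reached 2-fold higher (18.2%) and 0 reached 2-fold lower, against 7.46% and 9.80% of all genes. Their median difference was 0.23. ARHGEF17, a guanine nucleotide exchange factor, was 2.77-fold higher, at 8.26 in the Y42C array and 6.79 in the wild-type array. DOCK5, a RAC exchange factor, was 2.73-fold higher, at 13.38 in the Y42C array and 11.93 in the wild-type array. The growth factor receptor AXL, a frequent readout, differed by 0.72 and CRIM1 by 0.81. MYOF lay at -0.78 and NT5E at -0.36, so the signature outside the selected genes held differences of both signs.

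A second set of 26 genes reported as YAP-TEAD targets in various cells had 21 members above the minimum. Of these, 4 reached 2-fold higher (19.0%) and 1 reached 2-fold lower, against 7.46% and 9.80% of all genes. The median difference was 0.38. EDN1, the vasoactive peptide endothelin, was at least 4.72-fold higher, with 7.41 in the Y42C array and a wild-type value of 4.67 below the minimum. MYC was 4.20-fold higher, INHBA, an activin subunit, 3.16-fold, and the LIM protein gene AJUBA 3.12-fold. BIRC5 (survivin), also a gene of dividing cells, was 3.32-fold lower, with 6.86 in the Y42C array and 8.59 in the wild-type array. The cell cycle genes CCND1, CCNE1, CDC20, AURKA and TK1 of this set, grouped after their values were seen, differed by 0.54, 0.04, 0.13, -0.46 and -0.31. None of these 5, a group that leaves out BIRC5, was 2-fold apart, against 17.3% of all genes. Nothing is read from so few genes.

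Genes that regulate YAP1 were counted as 1 group. Of 41 such genes above the minimum, the selected ones left out, 9 reached 2-fold higher (22%) and 4 reached 2-fold lower (9.76%), and the median difference was 0.40. Over all genes 17.3% were at least 2-fold apart in either direction, against 13 of these 41. The lists were chosen with earlier results known, and no test of them was made.

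The core kinases differed in both directions. STK3 (MST2) had 12.90 in the Y42C array and 12.70 in the wild-type array, whereas its partner kinase STK4 (MST1) was 2.73-fold lower, with 8.63 in the Y42C array and 10.08 in the wild-type array. The adaptors SAV1, MOB1A and MOB1B differed by 0.37, 0 and -0.23. Of the TAO kinases, which activate MST1 and MST2, TAOK2 was 2.99-fold higher, with 8.74 in the Y42C array and 7.16 in the wild-type array, and TAOK3 was 2.58-fold lower, with 8.10 in the Y42C array and 9.47 in the wild-type array. The MAP4K family kinase MINK1, which can also act on LATS kinases, differed by 0.96.

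Of 15 regulators that bind YAP1 or act above the kinases and were above the minimum, 11 were higher by any amount, against 45.2% of all genes. Of the 15, 6 reached 2-fold higher (40.0%) and 0 reached 2-fold lower, against 7.46% and 9.80% of all genes. Their median difference was 0.73. The 6 were AJUBA, WTIP, WWC3, AMOTL1, TP53BP2 and RASSF2. AJUBA and WTIP belong to the same small family of LIM proteins that bind LATS kinases and block them at junctions under tension. AJUBA had 11.27 in the Y42C array and 9.63 in the wild-type array, WTIP had 9.11 in the Y42C array and 7.53 in the wild-type array, and the third member, LIMD1, differed by 0.73. WWC3, a relative of the Hippo activator KIBRA, was 2.73-fold higher, with 6.76 in the Y42C array and a wild-type value of 5.31 only 0.14 above the minimum. KIBRA itself (WWC1) differed by -0.16, NF2 (merlin) by 0.38 and CTNNA1 by -0.19. TP53BP2, which binds YAP1 and a phosphatase that acts on WWTR1, was 2.33-fold higher, and RASSF2 2.01-fold.

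The STRIPAK complex carries a phosphatase that switches MST1 and MST2 off. Of its 11 measured subunits, 1 reached 2-fold higher and 1 reached 2-fold lower, against 7.46% and 9.80% of all genes. Their median difference was 0.13. SLMAP, which docks MST kinases on the complex, was 2.23-fold higher, with 9.57 in the Y42C array and 8.41 in the wild-type array. STRIP2 was 2.20-fold lower, with 6.27 in the Y42C array and 7.41 in the wild-type array. The scaffold STRN and the catalytic subunit PPP2CA were nearly equal, with differences of 0.08 and 0.02.

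**Figure D5:**
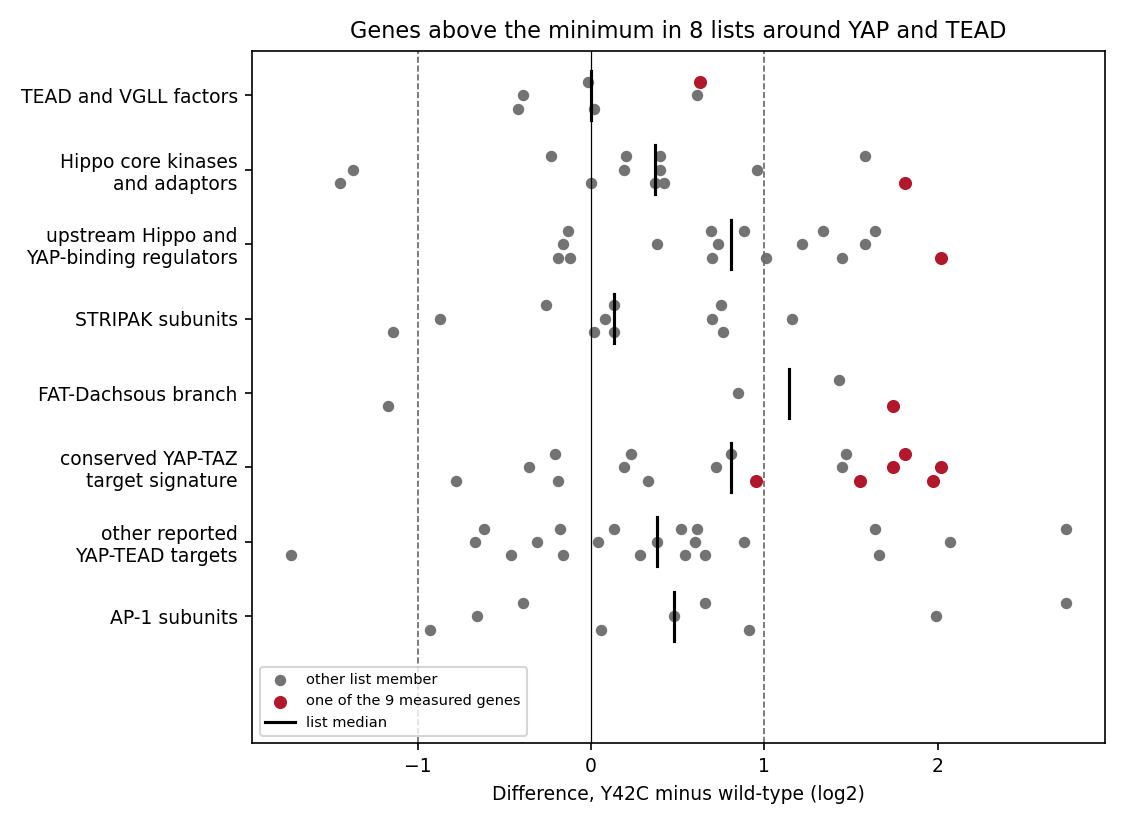
Difference (log2, Y42C minus wild-type) of the genes above the minimum in 8 lists, with the 9 measured genes in red, other genes in grey, the list median as a black bar and dashed lines at 2-fold. Medians here include the 9 genes, and a gene may stand in more than 1 list; the upstream regulators have 0 genes past 2-fold lower, and the core kinases, STRIPAK subunits, FAT-Dachsous genes and other targets have genes past 2-fold on both sides.

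RHOA signal was close in the 2 arrays, at 16.30 for Y42C and 16.47 for wild-type, and since both lines carry a RHOA vector it does not check the labels. RHOC differed by -0.25, and RHOB, whose transcript growth factors induce, was 5.58-fold higher. Of 8 epithelial markers 6 were above the minimum. KRT8 had 17.94 in the Y42C array and 17.96 in the wild-type array. EPCAM had 13.53 in the Y42C array and 13.30 in the wild-type array. ESRP1 was dim, with 6.62 in the Y42C array and 6.86 in the wild-type array. CDH1 and GRHL2 were below the minimum in both. Of 12 gastric markers 5 were above the minimum, among them GATA6, and the stomach mucin and trefoil genes MUC5AC, MUC6, TFF1 and TFF2 were not. Of the 7 fibroblast markers named here, 6, with DCN, THY1 and FAP among them, were below the minimum in both arrays. Median levels over the 7 were 4.67 in the Y42C array and 4.15 in the wild-type array. Of leukocyte markers 5 of 8 and of endothelial markers 4 of 6 were above the minimum in at least 1 array, with median levels over all named markers of 5.53 and 6.01 in the Y42C array and 4.66 and 5.95 in the wild-type array. The leukocyte marker CD14 was 3.43-fold lower, with 5.67 in the Y42C array and 7.45 in the wild-type array, and CD68 had 10.15 in the Y42C array and 10.66 in the wild-type array. PTPRC, which defines leukocytes, had 5.39 in the Y42C array and 4.61, below the minimum, in the wild-type array. The gastric marker ANXA10 was at least 1.30-fold higher, with 5.55 in the Y42C array and 3.78, below the minimum, in the wild-type array. Their part in the differences was not tested.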

How the data were processed

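Total RNA of 2 MKN1 lines was measured on 1 Affymetrix array each. The deposited values of 21448 probe sets run between 2.23 and 18.16 and were taken as log2, a base no source states. Affymetrix Expression Console made them, per the submitters' processing notes, and its version, summary method and normalization were not given in the sources used here. Array medians were 6.36 (Y42C) and 6.42 (wild-type). Arrays give no read depth, and their number limits the precision.

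The platform annotation named 17709 probe sets and left 3739 unnamed here; 0 symbols changed on updating. Probe sets of a gene were averaged (20 genes). No detection calls were used; the minimum is described above. Below it on the dimmer array, folds are lower bounds against the minimum; with both arrays below, none is given. Differences are Y42C minus wild-type, with 2-fold as the threshold. Counts past the threshold use the deposited difference, even where the fold is a lower bound. Members and lists were chosen with earlier results of these data known. The naming rule took all members, RHOA, RHOB and RHOC, the TEAD, VGLL, CCN and ANKRD1 families, and from other lists every gene past 2-fold and up to 2 at each end, and up to 3 of each marker list; other genes were named after their values were seen. Code was tested on simulated data. Alternatives covered normalization, trend on level (lowess, span 0.3), minimum, low values, probe sets and threshold. Scripts ran in Python 3.11.15 with NumPy 2.4.6, pandas 2.3.3, matplotlib 3.10.9 and statsmodels 0.14.6.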

Additional observations from a re-analysis of the deposited data

How the results depend on the processing

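The direction of all 9 measured genes held under centring, quantile normalization, trend removal and a constant of 16. Over these, PTPN14 lay between 1.99 and 2.14, LATS2 between 1.70 and 1.94, ANKRD1 between 1.63 and 2.05 and YAP1 between 0.22 and 0.28. Values below the main minimum set to it and the brightest probe set could not move the 9 genes. Each has 1 probe set and lay above the main minimum on both arrays. The 3 other minimums only chose which genes were kept, and differences were still taken from the deposited values. With the array median as minimum, ANKRD1 lay below it on the wild-type array. Its fold would then be a lower bound against that minimum, which was not computed. CCN1 passed 2-fold at 1.01 with centring, 1.01 with quantile normalization and 1.06 with the trend removed. The median of the 9 genes was 1.68 with the trend removed. The threshold changed counts by construction. At 1.5-fold, 7 of the 9 genes, 8 of the other reported targets and 23 of the 41 Hippo regulators passed; the regulators are counted in both directions, in which 2106 genes were higher and 2758 lower of 11802. At 4-fold, 1 of the 9 genes, 1 gene of the conserved signature (PTPN14 in both cases), 2 other targets and 0 Hippo regulators passed. Among all 11802 genes, 118 passed on the higher side and 69 on the lower side. With so few genes this far apart, nothing is read from 0 of the 41 regulators. With 1 array a group no replicate could be left out, and the spread between cultures is unknown. No paired analysis was possible because each group has 1 array.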

Other observations

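TEAD factors often act with AP-1, whose FOS and JUN subunits were also measured. Of 9 AP-1 genes above the minimum, 2 reached 2-fold higher and 0 reached 2-fold lower, against 7.46% and 9.80% of all genes above it. Their median difference was 0.48. FOSL1 was 6.68-fold higher, with 13.63 in the Y42C array and 10.89 in the wild-type array, and FOSB 3.97-fold, with 8.13 in the Y42C array and 6.14 in the wild-type array. JUN differed by 0.91, FOS by 0.06 and ATF3 by -0.93.

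Promoter windows were available for 9703 genes above the minimum, of which 7.09% reached 2-fold higher and 10.1% reached 2-fold lower. Of 1432 genes with a TEAD motif, 9.01% were at least 2-fold higher, against 6.76% of 8271 without one. The share at least 2-fold lower was 10.1% both with and without the motif. Of 692 genes with the AP-1 motif TGANTCA, any base at N, 10.5% were higher, against 6.82% of 9011 without one. Both motifs, in the same window or in different windows of a gene, were found for 177 genes, ANKRD1 among them. Of these, 27 reached 2-fold higher (15.3%) and 12 reached 2-fold lower (6.78%), with a median difference of 0.23. The share at least 2-fold higher was 8.81% of 1306 genes with 1 TEAD match and 8.77% of 114 genes with 2 matches. Of the 12 genes with at least 3 TEAD matches, 4 were at least 2-fold higher: C1orf116 (2.34), WTIP (1.58), CCN2 (1.55) and SYDE1 (1.03). CCN2 is 1 of the selected genes, which were not left out of the shares by motif. Of the other genes among the 12, MAMDC2 (-1.56) reached 2-fold lower. ARPIN-AP3S2 (-0.46), IL1RL2 (-0.44), EVI5 (-0.07) and EVI5L (-0.01) also had negative differences. ARPIN (0.49), IDUA (0.67) and LALBA (0.83) had positive ones below 2-fold. These shares are descriptions across genes of 2 arrays, and no test was made. Base composition of the windows and the number of windows per gene were not matched.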
